A study of Rattus norvegicus with 24 samples.

Results

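The genes described here encode the chaperones, folding enzymes, translocation machinery and stress regulators of the endoplasmic reticulum (ER). They were taken by symbol from a list of 41 genes. Of these, 39 had a probe set on the array that carried their symbol alone, 50 probe sets in all, among 12783 such probe sets for 10411 genes. Atf6, the ATF6 sensor gene, and Sesn2, a stress-induced inhibitor of TORC1, had none and are not analysed here. Each gene is represented by its brightest probe set, and 37 of the 39 were bright enough to be tested, among 7491 genes. The 2 that were not, Nucb2 and Trib3, are given by their signals only.

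RNA was measured in whole kidneys of 24 male SHR-SP rats, the stroke-prone spontaneously hypertensive strain, on 1 Affymetrix array per animal. From 11 weeks of age the animals received powdered chow and water, here the normal diet, or chow with 24.5% fat and drinking water with 1% NaCl, the diet called HSF (high salt and fat). Kidneys were taken after 2 or 8 weeks, which gave 4 groups of 6 animals. All animals carry the hypertensive background, salt and fat were always given together, and no normotensive strain is among the samples, so the comparisons address the joint effect of salt and fat within a hypertensive kidney.

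Secretory and membrane proteins enter the ER through the Sec61 channel, lose their signal peptide, and fold with the help of BiP, GRP94, calnexin, calreticulin and the disulfide isomerases. When unfolded proteins accumulate, the sensors IRE1, ATF6 and PERK start the unfolded protein response. IRE1 and ATF6 act through XBP1 and cleaved ATF6 on promoters with an ER stress response element and raise chaperones and degradation factors. PERK slows translation and favours ATF4, which induces CHOP (Ddit3), Trib3 and Chac1 through a different element. In the kidney, proximal tubule cells and activated fibroblasts are known to use this machinery heavily.

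The ER stress response element (ERSE) was searched on both strands as CCAAT and CCACG with 9 bases of any kind between them, in the 250 bases before the start of each gene, in promoter sequences of RefSeq on the GRCr8 build. The table held such a window for 33 of the 39 genes. Manf, Nucb2, Pdia3, Pdia6, Sec61a1 and Eif4ebp1 were not in it. Hspa5, Hsp90b1, Creld2, Canx, Xbp1, Dnajc3 and Calr held the exact element, 7 of 33 genes or 21.2%. The share of all windows of the same length in the table was 22 of 33469, or 0.0657%. The member share counts genes, and the 33 genes had 34 windows. The gene list was chosen to include known targets of this response, so a high share was built into it and is no independent evidence. The upstream sequences of Hspa5, which encodes BiP (chr3:38452766-38453015, plus strand), and Hsp90b1, which encodes GRP94 (chr7:23012294-23012543, minus strand), are shown whole because these are the main chaperones of the response. Capitals mark the ERSE, and each sequence runs 5′ to 3′ in the direction of the gene and stops at its start.
Hspa5: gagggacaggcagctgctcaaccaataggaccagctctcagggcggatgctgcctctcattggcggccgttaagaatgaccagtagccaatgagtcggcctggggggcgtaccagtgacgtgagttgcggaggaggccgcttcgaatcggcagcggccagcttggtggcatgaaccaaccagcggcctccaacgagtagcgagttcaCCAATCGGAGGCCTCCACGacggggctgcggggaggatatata
Hsp90b1: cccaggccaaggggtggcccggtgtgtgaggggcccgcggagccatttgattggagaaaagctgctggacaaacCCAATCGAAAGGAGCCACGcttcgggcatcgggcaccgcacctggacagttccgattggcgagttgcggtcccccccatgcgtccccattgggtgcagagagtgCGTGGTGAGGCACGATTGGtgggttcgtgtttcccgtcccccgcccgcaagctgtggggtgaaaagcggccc
Hspa5 had 1 exact match, 43 to 25 bases before the start, and Hsp90b1 had 2, the one nearer the start on the opposite strand.

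The other members with an ERSE are shown with 15 bases on each side, to let the shared ends and the variable middle be compared. They are Creld2 (chr7:121789224-121789272, plus strand), Canx (chr10:35158054-35158102, minus strand), Xbp1 (chr14:84604543-84604591, plus strand), Dnajc3 (chr15:102432519-102432567, plus strand) and Calr (chr19:40213120-40213168, plus strand), all on GRCr8.
Creld2: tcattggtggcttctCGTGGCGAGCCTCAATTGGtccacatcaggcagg
Canx: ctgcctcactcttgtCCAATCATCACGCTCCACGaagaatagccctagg
Xbp1: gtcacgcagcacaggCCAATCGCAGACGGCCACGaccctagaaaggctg
Dnajc3: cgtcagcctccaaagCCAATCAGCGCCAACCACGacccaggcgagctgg
Calr: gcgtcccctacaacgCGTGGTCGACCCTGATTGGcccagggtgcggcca
In Creld2 and Calr the element lay on the opposite strand. The compact form of the element, ERSE-II, was searched on both strands as ATTGG and CCACG with 1 base of any kind between them and was found in Hyou1 and Herpud1, against 0.0418% of all windows. Here too the gene list was chosen to include such targets. A match is a run of letters and does not show that a factor binds there.

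The composite element that ATF4 and its partners use was searched as TGATGNAA on both strands. It was found in 3 of the 33 genes (9.09%), against 3.4% of all windows. All 3 are known ATF4 targets, but the gene list was chosen to include such targets. Ddit3 had no match in the window searched. The matches with 15 bases on each side, or fewer where the window ended, are shown for Chac1 (chr3:126795949-126795986, plus strand), Trib3 (chr3:161275534-161275569, minus strand) and Herpud1 (chr19:10614869-10614906, minus strand), all on GRCr8.
Chac1: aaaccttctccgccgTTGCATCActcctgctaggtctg
Trib3: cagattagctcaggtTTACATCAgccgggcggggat
Herpud1: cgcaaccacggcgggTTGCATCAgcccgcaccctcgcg
The element lay on the opposite strand in these genes. Herpud1, a component of ER-associated degradation, held both this element and the ERSE-II, the latter 124 to 114 bases before the start. The element TGACGTGG, which XBP1 and ATF6 are known to bind, was found in Ckap4 and Hyou1 and in 0.52% of all windows, and in Hyou1 it overlapped an ERSE-II.

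Array medians lay between 68.7 and 78.7 in signal, and precision is limited by there being 6 arrays a group. Proximal tubule markers (12 of 13 with a probe set) had summed signals of 26280 to 38920 over the 24 arrays, so the tubule that makes up most of the renal cortex was present on each. Spiked bacterial and phage control probe sets were lower on the HSF diet at 2 weeks, with a difference of -0.30 on the log2 scale (exact two-sided permutation p = 0.00216, adjusted p = 0.0173 over 8 tests) and higher at 8 weeks by 0.23 (exact permutation p = 0.0476, adjusted p = 0.0952). The 3′ to 5′ ratio of GAPDH, a measure of RNA integrity, was higher on the HSF diet by 0.13 at 2 weeks (exact permutation p = 0.0152, adjusted p = 0.0405). At 8 weeks it differed by 0.01 (exact permutation p = 0.913). The actin ratio differed by 0.23 and -0.09 (exact permutation, adjusted p = 0.179 at both times). HSF array 2 at 2 weeks had the highest of both ratios, 1.398 and 2.261. A fat index of Fabp4, Cfd and Car3 differed by -1.72 at 2 weeks (exact permutation p = 0.00866, adjusted p = 0.0346) and by 0.23 at 8 weeks (adjusted p = 0.757). Normal-diet arrays 1 and 2 at 8 weeks had the lowest spike-in levels of their group (-0.44 and -0.31), as had HSF arrays 1 and 5 at 2 weeks (-0.43 and -0.33), and counts are given without each pair where they matter. Signals are MAS5 values on a linear scale. Differences are of log2(signal + 7.2), HSF minus normal diet unless stated, with the SE, and called means a limma p under 0.05 after Benjamini-Hochberg adjustment over all probe sets tested.

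After 8 weeks, 6 members rose on the HSF diet and 0 fell. They were the GRP94 gene Hsp90b1, the calcium-binding Rcn1, the disulfide isomerases Pdia3 and Pdia6, the prolyl isomerase Ppib and the transcription factor Atf4, with changes from 1.19-fold to 1.38-fold. That is 16.2% of the 37 members tested, against 5.73% of all 7491 genes called higher, and 3.76% of all genes were called lower. At an unadjusted p under 0.05 there were 11 members upward and 0 downward, against 12.8% and 11.5% of all genes. The median difference of the members was 0.12, and 30 of 37 lay above 0, whereas the median of all genes tested was 0.00. After 2 weeks limma called 0 of 37 in either direction, with an unadjusted p under 0.05 for 2 upward and 2 downward, against 13% and 9.56% of all genes. Of all genes, 5.03% were called higher and 3.59% lower at 2 weeks. Without HSF arrays 1 and 5 at 2 weeks together the counts were 0 at 2 weeks and 6 at 8 weeks. The spike-in level moved with diet as given above, and with it as a covariate limma called 2 of the 6 at 8 weeks, Ppib (0.27 ± 0.07, adjusted p = 0.0342) and Atf4 (0.47 ± 0.11, adjusted p = 0.0119), while the other 4 had differences of 0.19 to 0.44. Without normal-diet arrays 1 and 2 at 8 weeks the count was 4, as it was without any single one of normal-diet arrays 1 and 4 or HSF arrays 1 and 4 at 8 weeks, and without HSF array 6 at 8 weeks it was 8.

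**Figure D1:**
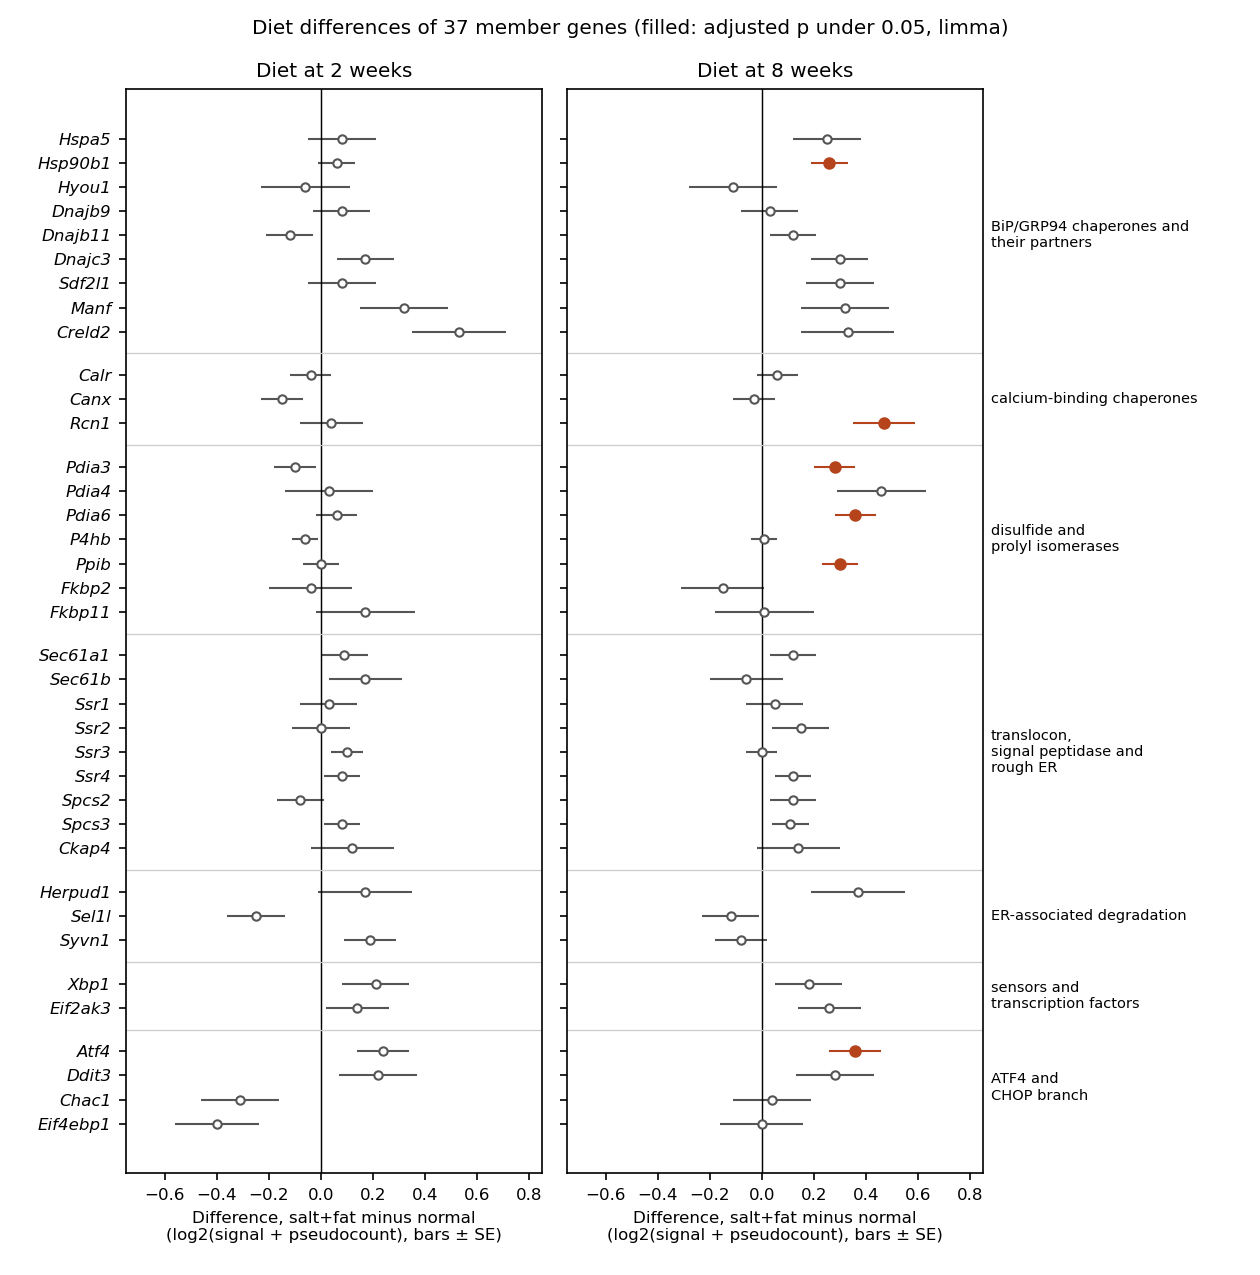
Difference between the HSF diet and the normal diet for 37 member genes at 2 weeks (left) and 8 weeks (right), in log2(signal + 7.2), with bars of ± 1 SE and filled points for an adjusted p under 0.05. No point is filled at 2 weeks and 6 are filled at 8 weeks, of which 3 are isomerases.

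Hspa5 encodes BiP, the HSP70 of the ER that holds the 3 sensors inactive. Its signal ranged from 1142 to 1584 (median 1452) on the normal diet and from 1186 to 1721 (median 1439) on the HSF diet at 2 weeks. At 8 weeks it ranged from 1188 to 1487 (median 1405) on the normal diet and from 1044 to 2077 (median 1769) on the HSF diet. The 8-week groups overlapped: 4 of the 6 HSF arrays lay above every normal-diet array and 1 lay below all of them. The difference was 0.25 ± 0.13 and was not called (limma adjusted p = 0.223). The low array was array 6, and without it the Hspa5 difference was 0.38 and was called (adjusted p = 0.0187).

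Hsp90b1, the HSP90 of the ER, had signals of 1004 to 1319 (median 1199) on the normal diet and 1141 to 1402 (median 1221) on the HSF diet at 2 weeks. At 8 weeks these were 997.9 to 1248 (median 1119) and 1180 to 1539 (median 1318). At 8 weeks 5 of 6 HSF arrays lay above every normal-diet array, and the groups overlapped by the remaining array. Hsp90b1 rose by 0.26 ± 0.07 (limma adjusted p = 0.0272). Leaving out a single 8-week array ended the call for normal-diet arrays 1, 2 and 4 and for HSF arrays 1 and 4 (adjusted p up to 0.0887), and so did centring arrays on their medians (0.25, adjusted p = 0.0652). Without normal-diet arrays 1 and 2 together Hsp90b1 had 0.20 (adjusted p = 0.170).

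The partners of BiP that supply, regulate or recycle it had positive differences at 8 weeks in most cases, with none called. Of the 9 genes of this group, Hspa5 and Hsp90b1 included, 8 lay above 0, with a median of 0.26 and a range of -0.11 to 0.33. Dnajc3, an HSP40 co-chaperone that also inhibits PERK, had 0.30 ± 0.11 (limma adjusted p = 0.0715) and, without HSF array 2 at 8 weeks, 0.36 (adjusted p = 0.0281). Sdf2l1, which works with BiP and Dnajb11, had 0.30 ± 0.13 (adjusted p = 0.173). Manf, a secreted ER stress protein that binds BiP, had 0.32 ± 0.17 (adjusted p = 0.262) and, without HSF array 6 at 8 weeks, 0.49 (adjusted p = 0.0324). Dnajb11 and Dnajb9, HSP40 partners of BiP, had 0.12 and 0.03 at 8 weeks and -0.12 and 0.08 at 2 weeks. Hyou1, the nucleotide exchange factor of BiP, had -0.11 ± 0.17 with its brightest probe set (limma adjusted p = 0.7465). The other had -0.13 ± 0.19 (adjusted p = 0.724).

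Creld2, a small ER protein and target of ATF6, had the largest 2-week difference among the brightest probe sets of the members. Its signals were 94 to 184.2 (median 150.3) on the normal diet and 149.1 to 334.8 (median 225.4) on the HSF diet, with 4 of 6 arrays above every normal-diet array. The difference was 0.53 ± 0.18 and was not called (limma adjusted p = 0.0581). The 2-week difference of Creld2 was called with array weights (0.54, adjusted p = 0.0281). It was also called when a single array was left out, namely normal-diet array 5 or 6 or HSF array 4 or 6 of the 2-week groups, or HSF array 6 at 8 weeks (0.53 to 0.63). At 8 weeks Creld2 had signals of 118.6 to 184.6 on the normal diet and 133.2 to 265.0 on the HSF diet, which overlapped (0.33 ± 0.18, adjusted p = 0.252).

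Rcn1, reticulocalbin, is a calcium-binding protein of the ER lumen. Its signals were 56.1 to 91.8 (median 77.5) and 59.2 to 95.9 (median 78.6) on the normal and the HSF diet at 2 weeks. At 8 weeks they were 64.3 to 81.9 (median 72.9) and 85.4 to 130.7 (median 104.5), and the groups did not overlap. Across all genes tested, 2.39% were separated upward in this way at 8 weeks. Rcn1 rose by 0.47 ± 0.12 (limma adjusted p = 0.0148), the largest 8-week difference among the brightest probe sets of the members. A fainter Rcn1 probe set below the filter had 18.4 to 37.2 on the HSF diet and 23.6 to 42.1 on the normal diet at 8 weeks, and the mean of both gave 0.09. The call was absent without HSF array 5 at 8 weeks (adjusted p = 0.0506).

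The lectin chaperones of the calnexin cycle, which hold newly made glycoproteins, did not pass the test with their brightest probe sets. Calr had -0.04 and 0.06 at 2 and 8 weeks. Canx had -0.15 ± 0.08 and -0.03 at the same times, and its 3 probe sets disagreed at 2 weeks. The Canx probe set of intermediate brightness had signals of 889.3 to 1090 (median 1007) on the normal diet and 386.0 to 842.8 (median 740.8) on the HSF diet at 2 weeks, which did not overlap, as in 1.98% of all genes with the HSF arrays below. This probe set fell by 0.56 ± 0.14 (limma adjusted p = 0.0109; 8.74% of all probe sets were called at 2 weeks), while the faintest had 0.09 ± 0.06 (adjusted p = 0.426). Nucb2, nucleobindin and precursor of nesfatin, was below the filter, with signals of 25.9 to 62.1 over all 24 arrays.

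The isomerases held 3 of the 6 increases at 8 weeks, 3 of 7 tested (42.9%, against 5.73% of all genes called higher). They form and rearrange disulfide bonds or turn proline bonds during folding, and their median difference was 0.28 at 8 weeks and 0.00 at 2 weeks. Ppib, cyclophilin B, which acts on procollagen among other clients, had signals of 818.6 to 1001 (median 913.0) and 782.0 to 1010 (median 903.9) on the normal and the HSF diet at 2 weeks. At 8 weeks it had 794.1 to 920.6 (median 860.2) and 969.1 to 1189 (median 1066). These did not overlap, as in 2.39% of all genes with the HSF arrays above. Ppib rose by 0.30 ± 0.07 (limma adjusted p = 0.00409) and was called at 8 weeks under every alternative and with any 1 array left out.

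Pdia6, a disulfide isomerase that also acts on the IRE1 and PERK sensors, had signals of 677.0 to 791.2 (median 751.8) and 705.5 to 882.3 (median 771.0) at 2 weeks. At 8 weeks it had 610.0 to 784.4 (median 650.8) on the normal diet and 691.2 to 1012 (median 918.7) on the HSF diet, where 5 of 6 arrays lay above every normal-diet array. Pdia6 rose by 0.36 ± 0.08 (limma adjusted p = 0.0053), with any 1 array left out as well.

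Pdia3, the isomerase that works with calnexin and calreticulin, had signals of 743.2 to 1011 (median 919.9) and 718.4 to 938.1 (median 851.9) at 2 weeks. At 8 weeks it had 731.0 to 986.4 (median 880.3) on the normal diet and 976.6 to 1257 (median 1035) on the HSF diet, overlapping by 1 array. Pdia3 rose by 0.28 ± 0.08 (limma adjusted p = 0.0284). Its fainter probe set had -0.28 ± 0.14 (adjusted p = 0.203), so the probe sets had opposite signs, and their mean gave -0.0027. Pdia3 lost its call when normal-diet array 1 or 4 or HSF array 3 or 4 of the 8-week groups was left out, and without normal-diet arrays 1 and 2 together (0.26, adjusted p = 0.101).

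The remaining isomerases did not pass the test. Pdia4 had the next largest 8-week difference after Rcn1 among the brightest probe sets, 0.46 ± 0.17 (limma adjusted p = 0.0893), with signals of 92.1 to 202.2 (median 156.8) on the normal diet and 160.7 to 253.2 (median 217.2) on the HSF diet. P4hb, the classical disulfide isomerase and a subunit of prolyl 4-hydroxylase, had 0.01 at 8 weeks and -0.06 at 2 weeks. Fkbp2 and Fkbp11, prolyl isomerases of another family, had -0.15 and 0.01 at 8 weeks. The increases among the isomerases were thus those of Ppib, Pdia6 and Pdia3, with P4hb close to 0.

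**Figure D2:**
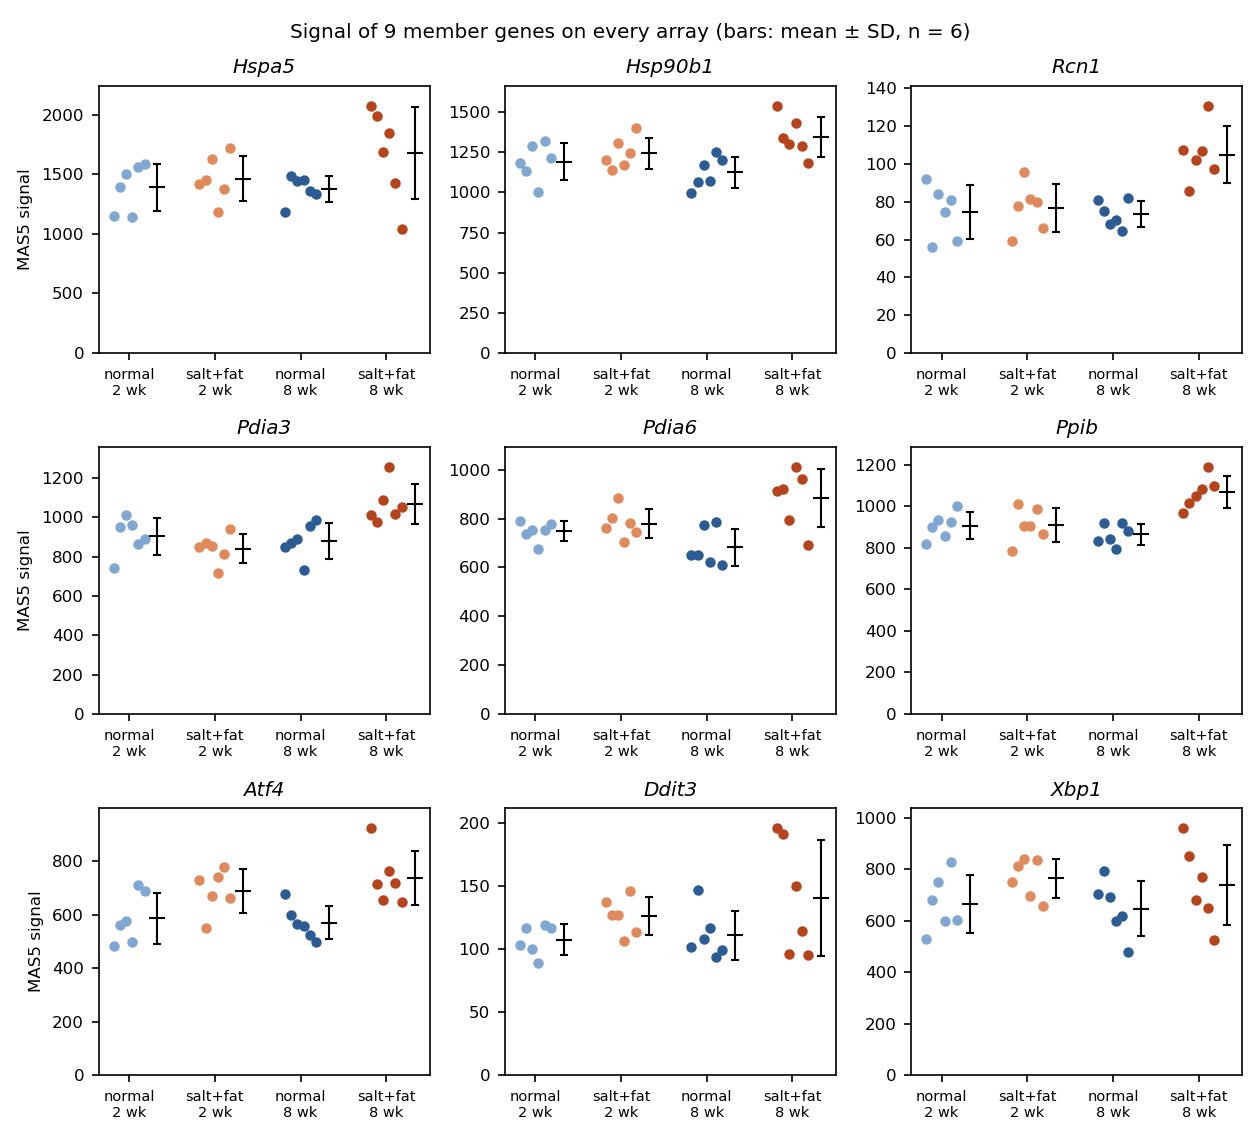
MAS5 signal (linear axis from 0) of 9 member genes on each of the 24 arrays, 1 point per animal, with the mean ± SD of the 6 animals beside each group. The 6 HSF arrays at 8 weeks lie above all normal-diet arrays of that time for Rcn1 and Ppib, while for Hspa5, Ddit3 and Xbp1 they spread widely around a higher mean.

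The translocon group carries proteins into the ER and trims them. It held the Sec61 channel subunits Sec61a1 and Sec61b, the translocon-associated Ssr1 to Ssr4, the signal peptidase subunits Spcs2 and Spcs3, and Ckap4, which shapes rough ER sheets. Limma called 0 of 9 at either time (5.03% and 5.73% of all genes were called higher), and 0 had an unadjusted p under 0.05. Differences ran from -0.08 to 0.17 at 2 weeks and from -0.06 to 0.15 at 8 weeks, with medians of 0.08 and 0.12. These values are of the brightest probe sets. At 2 weeks the second probe set of Sec61a1 had -0.22 ± 0.10 (limma adjusted p = 0.187) and that of Ssr3 0.25 ± 0.11 (adjusted p = 0.188), both with an unadjusted p under 0.05. The fainter probe set of Ckap4 had signals of 26.6 to 55.3 (median 46.9) on the normal diet at 8 weeks. On the HSF diet it had 56.2 to 107.8 (median 74.3), with no overlap, as in 2.39% of all genes with the HSF arrays above. This probe set rose by 0.76 ± 0.21 (limma adjusted p = 0.0251), and 9.14% of all probe sets were called at 8 weeks. The brighter one had 0.14 ± 0.16.

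ER-associated degradation draws misfolded proteins back to the cytosol. Sel1l and Syvn1, the core of its main ubiquitin ligase, had -0.12 and -0.08 at 8 weeks, and -0.25 ± 0.11 (limma adjusted p = 0.177) and 0.19 at 2 weeks. Herpud1, a partner of that ligase, had 0.37 ± 0.18 (adjusted p = 0.200) at 8 weeks. Its 6 HSF arrays at 8 weeks had signals of 1001, 907.4, 428.5, 802.8, 510.4 and 396.8, high on arrays 1, 2 and 4.

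Xbp1, the transcription factor whose mRNA IRE1 splices, had signals of 527.2 to 828.9 (median 641.1) and 654.9 to 837.5 (median 781.1) on the normal and the HSF diet at 2 weeks. At 8 weeks these were 479.5 to 793.0 (median 654.8) and 523.1 to 960.7 (median 725.7). The groups overlapped at both times, with 0.21 ± 0.13 (limma adjusted p = 0.331) and 0.18 ± 0.13 (adjusted p = 0.409). The array does not separate spliced from unspliced Xbp1 mRNA as used here. Eif2ak3, which encodes PERK, had 0.14 and 0.26 ± 0.12 (adjusted p = 0.185).

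In the ATF4 and CHOP branch 1 of 4 tested genes rose at 8 weeks (25%, against 5.73% of all genes called higher). Atf4 had signals of 484.4 to 709.7 (median 568.8) and 548.7 to 780.1 (median 699.7) at 2 weeks. At 8 weeks it had 499.1 to 677.9 (median 562.8) on the normal diet and 648.6 to 925.6 (median 717.5) on the HSF diet, with 4 of 6 arrays above every normal-diet array. Atf4 rose by 0.36 ± 0.10 at 8 weeks (limma adjusted p = 0.0238), a call absent without normal-diet array 6 or HSF array 1 at 8 weeks, and had 0.24 ± 0.10 at 2 weeks (adjusted p = 0.157).

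The other tested members of the branch, Ddit3, Chac1 and Eif4ebp1, did not pass the test. Ddit3, which encodes CHOP, had signals of 88.8 to 118.9 (median 109.8) and 106.3 to 146.2 (median 126.9) at 2 weeks, and of 93.8 to 147.1 (median 104.6) and 95.2 to 196.1 (median 132.1) at 8 weeks. Its differences were 0.22 ± 0.15 (limma adjusted p = 0.398) and 0.28 ± 0.15 (adjusted p = 0.252), with overlap at both times. Chac1, a glutathione-degrading enzyme, had -0.31 ± 0.15 at 2 weeks (adjusted p = 0.223), -0.45 without HSF array 6 at 2 weeks (adjusted p = 0.0344), and 0.04 at 8 weeks. Eif4ebp1, a repressor of translation initiation, had -0.40 ± 0.16 at 2 weeks (adjusted p = 0.123), with 0 of 6 arrays above the normal-diet median, and -0.0011 at 8 weeks. Trib3, a pseudokinase that restrains ATF4 and AKT, stayed below the filter, with signals of 21.8 to 53.6 for its brightest probe set over all groups.

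Set side by side, the 28 chaperone, isomerase and translocon genes tested had a median difference of 0.06 at 2 weeks and 0.12 at 8 weeks. The 4 genes of the ATF4 and CHOP branch had -0.04 and 0.16. The medians of all genes tested were 0.03 and 0.00. With 4 genes, of which Atf4 and Ddit3 had positive values and Chac1 and Eif4ebp1 negative ones at 2 weeks, the branch median is a description of unlike members. The 7 members with an ERSE had a median of 0.08 at 2 weeks and 0.25 at 8 weeks. Among them 1 was called at 8 weeks (Hsp90b1), against 5.73% of all genes called higher. The risers Rcn1, Ppib and Atf4 had no exact match to the ERSE in the window searched. Pdia3 and Pdia6 had no window and could not be searched.

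Whether the diet difference itself changed from 2 to 8 weeks was tested as an interaction, and limma called 0 of 37 members. Of all genes 0.36% were called upward and 0.0534% downward in this test. At an unadjusted p under 0.05 there were 4 members upward and 0 downward, against 5.19% of all genes upward and 5.82% downward. They were Pdia3 (0.38 ± 0.11, adjusted p = 0.159), Ppib (0.30 ± 0.09, adjusted p = 0.186), Pdia6 (0.31 ± 0.12, adjusted p = 0.285) and Rcn1 (0.42 ± 0.17, adjusted p = 0.325). The difference between the times was therefore not called for any member, although the calls were made at 8 weeks.

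Comparing 8 with 2 weeks on the HSF diet, 3 of 37 members were higher at 8 weeks and 0 lower, against 2.04% of all genes called higher and 1.47% lower. At an unadjusted p under 0.05 there were 8 upward and 1 downward, against 7.78% and 8.58% of all genes. Pdia3 rose by 0.34 ± 0.08 (limma adjusted p = 0.0143), and its 6 arrays at 8 weeks lay above all 6 at 2 weeks, as in 1.13% of all genes. Ppib rose by 0.23 ± 0.07 (adjusted p = 0.0448) and Rcn1 by 0.42 ± 0.12 (adjusted p = 0.0488). The count was 1 when a single one of 12 arrays was left out: normal-diet arrays 3, 4 and 5 and HSF arrays 1 and 4 at 2 weeks, and normal-diet arrays 1, 3 and 6 and HSF arrays 3, 4, 5 and 6 at 8 weeks. It was 0 with the spike-in covariate and without HSF arrays 1 and 5 at 2 weeks together. It was 1 with median centring, with no filter, with only the groups compared, with the mean of a gene's probe sets, and without normal-diet arrays 1 and 2 at 8 weeks. This comparison shares the 8-week HSF arrays with the diet comparison. On the normal diet limma called 0 of 37 members between the times, with an unadjusted p under 0.05 for 1 upward and 2 downward, against 5.1% and 3.62% of all genes. Of all genes 0.04% were called higher and 0.0133% lower.

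**Figure D3:**
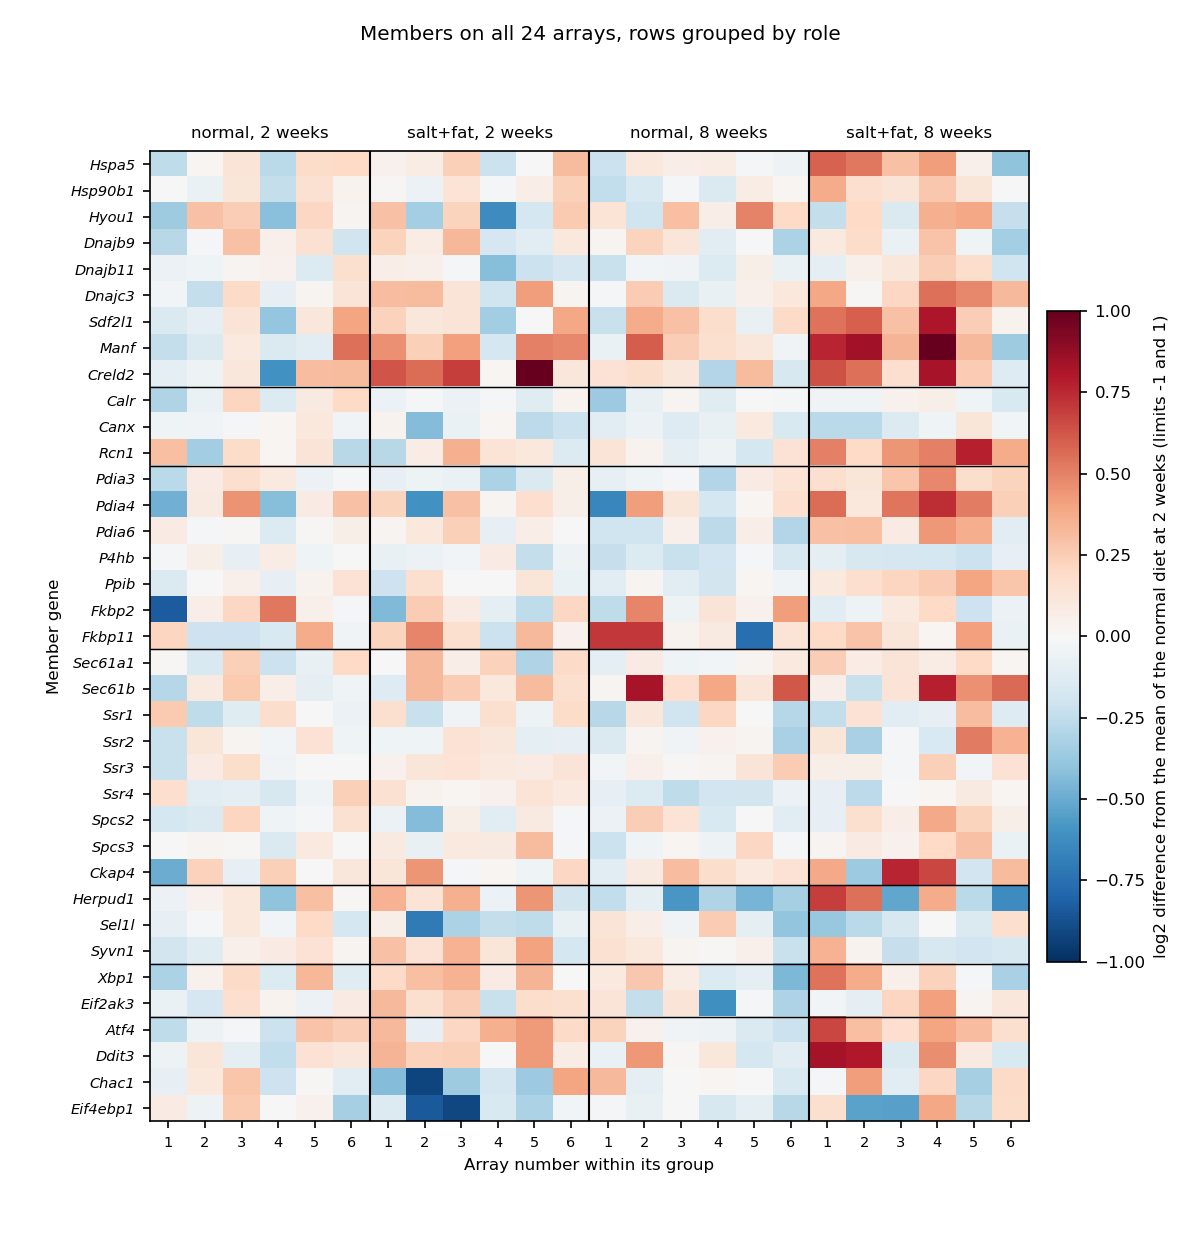
Members tested (rows, grouped by role) on all 24 arrays (columns, by group and array number), coloured by log2(signal + 7.2) minus the gene's mean on the normal diet at 2 weeks, with colour limits of -1 and 1. Within the 8-week HSF group, arrays 1, 2 and 4 are redder than arrays 5 and 6 for Hspa5, Sdf2l1 and Manf, whereas Rcn1 and Ppib are raised on all 6.

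Within the 8-week HSF group the members did not share 1 order of arrays. Hspa5 had signals of 2077, 1988, 1692, 1845, 1426 and 1044 on arrays 1 to 6, and Ddit3 had 196.1, 191.0, 95.8, 149.8, 114.4 and 95.2. Xbp1 had 960.7, 850.8, 680.3, 771.1, 648.9 and 523.1. Arrays 1 and 2 were thus high and array 6 low for these 3 genes. Ppib had 969.1, 1015, 1050, 1082, 1189 and 1098 on the same arrays, and was lowest on array 1. Array 6 was the lowest of its group for 16 of 37 members, and array 4 the highest for 16 of 37. The other groups had like counts, such as 16 members lowest on normal-diet array 1 at 2 weeks and 14 highest on normal-diet array 2 at 8 weeks.

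This variation between animals was measured as the correlation of each gene with Hspa5 over the 24 arrays, after each array's deviation from its group mean was taken. The relation was looked at after the data had been examined, with p-values from 100000 permutations within groups, adjusted over 7490 genes. Sdf2l1 had r = 0.82 and rho = 0.82 (permutation p = 1e-05, the smallest that can be reached, adjusted p = 0.0374, and adjusted p = 0.150 for rho, whose permutation p = 4.0e-05). Within the 4 groups its r was 0.84 to 0.89, and without the 2 arrays farthest in Hspa5 it was 0.79. Manf had r = 0.82 and rho = 0.78 (permutation p = 4.0e-05, adjusted p = 0.0499, and adjusted p = 0.150 for rho, whose permutation p = 6.0e-05), with 0.64 to 0.93 within groups and 0.68 without those 2 arrays. Of the 36 other members, these 2 passed the adjusted threshold with Pearson's r and 0 with Spearman's rho. Over all 7490 genes, 4 (0.0534%) passed with a positive r and 2 with a negative one.

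Hsp90b1 (r = 0.69, rho = 0.64, adjusted permutation p = 0.250 and 0.522), Ddit3 (0.67 and 0.62, 0.446 and 0.562), Xbp1 (0.64 and 0.57, 0.436 and 0.583) and Herpud1 (0.64 and 0.56, 0.527 and 0.639) had the next highest values without passing the test. Without the 2 arrays farthest in Hspa5 their r was 0.65, 0.56, 0.51 and 0.50. The values of Xbp1 and Herpud1 differed between groups, from -0.01 to 0.96 and from -0.06 to 0.84. The 6 genes that rose with diet at 8 weeks spread widely in this relation, and none of them passed the test. Besides Hsp90b1, Pdia6 had r = 0.52 and rho = 0.37 (adjusted permutation p = 0.625 and 0.798), Atf4 0.38 and 0.35 (0.756 and 0.846) and Pdia3 0.22 and 0.11 (0.898 and 0.985). Ppib had -0.07 and -0.07 (0.973 and 0.985) and Rcn1 -0.21 and -0.21 (0.907 and 0.963), and the r of Ppib ran from -0.66 to 0.92 within groups. Without the 2 arrays the r of Pdia6 was 0.20, of Atf4 0.41, of Pdia3 0.15, of Ppib -0.02 and of Rcn1 -0.34. The members had a median r of 0.23, against 0.00 over all genes, and 8 of 36 were among the 100 genes with the highest r. All points of a gene pair come from the same arrays, so array-wide differences enter every r.

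**Figure D4:**
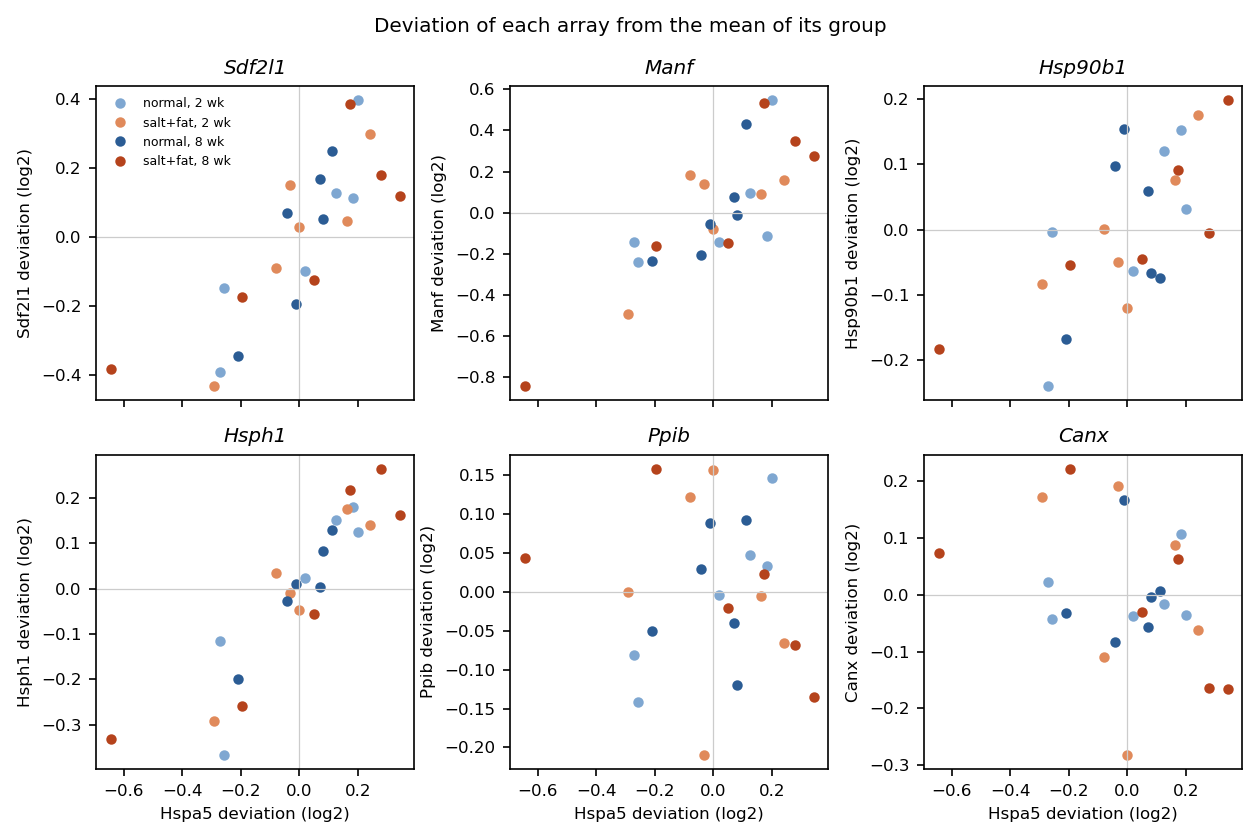
Deviation of each of the 24 arrays from the mean of its own group in log2(signal + 7.2), for Hspa5 on the horizontal axis and 6 other genes on the vertical axes, with 1 point per animal coloured by group. Sdf2l1, Manf and the cytosolic Hsph1 rise with Hspa5 (r of 0.82, 0.82 and 0.91), whereas Ppib (-0.07) and Canx (-0.34) do not.

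The gene whose deviations followed Hspa5 most closely was no member but Hsph1, which encodes the cytosolic HSP110 chaperone (r = 0.91, rho = 0.90, permutation p = 1e-05, the smallest that can be reached, adjusted p = 0.0374, and adjusted p = 0.150 for rho). Chordc1, a partner of HSP90, and the cytosolic chaperone genes Dnaja1 and Hsp90ab1 were among the first 6, of which Chordc1 passed with Pearson's r (0.84, rho = 0.79, adjusted permutation p = 0.0499 and 0.150). With diet at 8 weeks, Hsp90ab1 rose by 0.37 ± 0.08 (limma adjusted p = 0.00236) and Hsph1 by 0.39 ± 0.10 (adjusted p = 0.0176), while Chordc1 (0.35 ± 0.14) and Dnaja1 (0.12 ± 0.14) were not called.

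Other genes of the same pathway were taken from lists by function. Of 34 other folding enzymes and chaperones tested, 5 rose and 1 fell at 2 weeks (14.7% and 2.94%, against 5.03% and 3.59% of all genes), and 4 rose and 0 fell at 8 weeks (11.8% and 0%, against 5.73% and 3.76%; limma, with 0 downward at an unadjusted p under 0.05). Those named at 2 weeks were the collagen-modifying P4ha2 (0.68 ± 0.13, limma adjusted p = 0.00131) and Plod2 (0.61 ± 0.12, adjusted p = 0.00147), the sulfhydryl oxidase Qsox1 (0.99 ± 0.23, adjusted p = 0.00699) and Uggt1, the folding sensor of glycoproteins, which fell by 0.63 ± 0.17 (adjusted p = 0.0197). At 8 weeks they were Plod2, with signals of 86.3 ± 11.6 and 160.1 ± 32.5 (SD, n = 6), the collagen chaperone Serpinh1 (HSP47) with 359.3 ± 57.3 and 554.4 ± 83.5, Qsox1 with 22.4 ± 11.6 and 54.3 ± 11.4, and the thioredoxin Tmx1 with 245.0 ± 20.4 and 289.4 ± 18.5. Plod2 rose by 0.83 ± 0.12 (adjusted p = 3.611e-05), Serpinh1 by 0.62 ± 0.11 (adjusted p = 0.000818), Qsox1 by 1.12 ± 0.23 (adjusted p = 0.00236) and Tmx1 by 0.24 ± 0.07 (adjusted p = 0.0219). Serpinh1 (0.39 ± 0.11, limma adjusted p = 0.0301) and Tmx1 (0.21 ± 0.07, adjusted p = 0.0395) had also risen at 2 weeks. Among the genes named, P4ha2, Plod2 and Serpinh1 act on collagen. The related P4ha1, Plod1 and Plod3 of the same list were tested and not called at either time. P4ha2 was not called at 8 weeks. The medians of this list were 0.08 and 0.07.

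Of 26 other genes of the ATF4 and CHOP branch tested, 1 rose and 2 fell at 2 weeks (3.85% and 7.69%, against 5.03% and 3.59% of all genes), and 1 rose and 1 fell at 8 weeks (3.85% each, against 5.73% and 3.76%). Nupr1, a stress-induced chromatin protein, rose from 71.2 ± 8.60 to 129.3 ± 18.2 at 2 weeks (SD, n = 6; 0.80 ± 0.12, limma adjusted p = 0.000147) and from 75.4 ± 17.5 to 138.4 ± 18.6 at 8 weeks (0.83 ± 0.12, adjusted p = 5.466e-05). The genes called lower were Psat1 and Phgdh, which encode enzymes of serine synthesis. Psat1 fell by 0.42 ± 0.08 at 2 weeks (adjusted p = 0.00131), and Phgdh fell by 0.43 ± 0.13 at 2 weeks (adjusted p = 0.0318) and by 0.52 ± 0.13 at 8 weeks (adjusted p = 0.00971). The medians of this list were 0.06 and 0.07.

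Of 25 genes of ER to Golgi traffic and retrieval tested, 1 rose at 2 weeks (4%) and 3 at 8 weeks (12%). Limma called 0 of them lower, with an unadjusted p under 0.05 downward for 2 and 4. For this and the next lists, 5.03% of all genes were called higher and 3.59% lower at 2 weeks. At 8 weeks these shares were 5.73% and 3.76%. At an unadjusted p under 0.05 they were 13% and 9.56% at 2 weeks and 12.8% and 11.5% at 8 weeks. Tmed3, a cargo receptor, rose at 2 weeks (1.04 ± 0.32, limma adjusted p = 0.0375). Those at 8 weeks were the cargo receptor Tmed10 (0.27 ± 0.07, adjusted p = 0.0108), the COPII GTPase Sar1a (0.20 ± 0.06, adjusted p = 0.0402) and Kdelr3, a receptor that returns ER chaperones from the Golgi (0.73 ± 0.24, adjusted p = 0.0477). Of 29 other translocation and oligosaccharyl transferase genes, 1 rose at 2 weeks, the transferase subunit Dad1 (0.35 ± 0.07, adjusted p = 0.0018), and 0 changed at 8 weeks, where 5 had an unadjusted p under 0.05 upward and 1 downward. Of 16 other genes of ER-associated degradation, 1 fell at 2 weeks, the ubiquitin-conjugating Ube2j1 (-0.43 ± 0.12, adjusted p = 0.0276), and limma called 0 at 8 weeks, with an unadjusted p under 0.05 for 1 upward and 1 downward. Of 9 other sensors, processing enzymes and related factors, limma called 0 at either time, with an unadjusted p under 0.05 for 1 at 2 weeks, downward, and for 0 at 8 weeks.

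Whole kidney was measured, so a change of RNA per cell and a change in the share of a cell type cannot be told apart. The markers of other cell types moved with diet at 8 weeks. Fibroblast markers, 9 of 9 with a probe set, had summed signals of 1545 to 1933 on the normal diet and 2061 to 4316 on the HSF diet. These did not overlap, and 4 of 6 tested rose, the matrix genes Col1a1, Col1a2, Col3a1 and Dcn. The receptor genes Pdgfra and Pdgfrb had close medians, 311.15 and 77.8 on the HSF diet against 289.1 and 75.35 on the normal diet. Macrophage markers, 9 of 11 with a probe set, had 2496 to 3086 and 3076 to 4050, and 3 of 8 tested rose. Most of this sum was Lyz2, with 1689 to 2253 and 2169 to 2970. Differences lay above 0 for 7 of the 8, while Aif1 had a lower median on the HSF diet (65.6 against 81.75). Limma called 5.73% of all genes higher at 8 weeks. Proximal tubule markers had 29670 to 38920 and 27520 to 31940, and 4 of 12 fell, while 7 of 12 fell at 2 weeks. The shares of all genes called lower were 3.76% at 8 weeks and 3.59% at 2 weeks. At 2 weeks the same sums were 1815 to 2732 and 2088 to 2678 for fibroblasts, 2808 to 3204 and 2443 to 2932 for macrophages, and 35460 to 37850 and 26280 to 33440 for the proximal tubule.

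Plasma cells are rich in ER chaperones, but 2 of 12 of their markers had a probe set, and the tested one, Sdc1, is also found in epithelia. Sdc1 had 70.2 to 91.7 on the normal diet and 95.5 to 141.3 on the HSF diet at 8 weeks. Of the exocrine pancreas markers, another tissue with much ER, 9 of 10 had a probe set. Prss2 and Cpa1 had signals of 0.4 to 2.3 and 0.7 to 13.2 over all arrays, while Prss1 reached 46.4 and Pnlip 55.8. Summed pancreas signals of 262.4 to 329.8 and 309.4 to 492.1 at 8 weeks came mostly from Cela1. Cela1 was the only one tested, and limma called it higher on the HSF diet at 2 weeks (0.67) and at 8 weeks (0.60). Of all genes, 5.03% and 5.73% were called higher at these times. Adipocyte markers, 7 of 9 with a probe set, had 390.8 to 4053 and 162.4 to 343.5 at 2 weeks and 146.7 to 3610 and 446.0 to 821.4 at 8 weeks. Liver markers, 8 of 9 with a probe set, had 247.5 to 332.2 and 146.5 to 230.6 at 2 weeks, and 207.1 to 365.5 and 168.2 to 391.4 at 8 weeks. No marker was at 0 on any array. The part of these cell types in the increases of Ppib, Rcn1, the disulfide isomerases, Hsp90b1 and Atf4 was not tested.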

How the data were processed

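Intensity values were deposited for 15923 probe sets on each of 24 arrays, as MAS5 signals according to the submitters' processing notes. The version, scaling target and detection calls are not given in the sources used here. The mean after trimming 2% at each end was 150.034 to 150.042 on every array, so arrays had been scaled alike. No pair of arrays was a duplicate (at most 0.691% identical values in a group). Gene symbols came from the platform annotation, updated by Entrez identifier to RefSeq of GRCr8, which changed 0 symbols. There were 57 control probe sets, 12783 with 1 symbol, 312 with several and 2771 with none.

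Values were log2(signal + 7.2), the pseudocount being 0.1 of the median array median, which understates changes of faint genes. A probe set was tested where it exceeded its array's 40th percentile (44.48 to 54.5) on at least 6 arrays, and 10208 were. Group means were fitted with limma 3.58.1 in R 4.3.3 (lmFit, contrasts.fit, eBayes with trend) to all 24 arrays, two-sided. The procedure was tested on simulated data. The labels do not say whether arrays with the same replicate number were paired. Alternatives covered pseudocounts, normalization, filters, eBayes, array weights, replicate number as a block, samples, probe sets and covariates (GAPDH ratio, spike-in level, and a fat index of Fabp4, Cfd and Car3). The other members are given by their differences, singly or as ranges. Signals by group are given for Hspa5, Hsp90b1, Xbp1, Atf4, Ddit3 and for members called with diet. From each pathway list up to 4 called genes of smallest p at each time are named, with any call at the other time. Creld2, Pdia4 and others not called were added after their values were seen. Members and lists were chosen with earlier results of these data known. Python 3.11.15 was used for summaries, permutations and promoter searches.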

Additional observations from a re-analysis of the deposited data

Results flagged for a closer look

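Within groups of 6 arrays, the highest or lowest array of 5 of the 148 combinations of member and group stood apart from the others by more than 0.625 of the group's range, a gap that chance gives in about 1 in 20 groups. Manf had 494.7 on normal-diet array 6 at 2 weeks, against 283.6 to 359.9 on the others. Canx had 1102.8 on normal-diet array 5 at 8 weeks, against 925.6 to 985.9. Pdia4 had 95.6 on HSF array 2 at 2 weeks, against 152.6 to 184.1. Eif2ak3 had 66.8 on HSF array 4 at 2 weeks, against 88.9 to 100.4. Chac1 had 115.6 on normal-diet array 1 at 8 weeks, against 80.7 to 92.1. No member's diet difference was called as different between the times.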

How the results depend on the processing

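The 8-week count of 6 members called higher was 4 to 6 under the other settings, except 2 with the spike-in covariate, and 4 to 8 with 1 array left out. At 2 weeks the count of members called higher was 1 in place of 0 with array weights and with the replicate number as a block, and 0 to 1 with 1 array left out, as was that called lower. The mean of a gene's probe sets turned the 8-week Pdia3 difference to -0.0027. For 8 against 2 weeks on the HSF diet, the count of 3 members higher was 1 with median centring, no filter, only the groups compared, the mean of a gene's probe sets, or without normal-diet arrays 1 and 2 at 8 weeks, 0 with the spike-in covariate or without HSF arrays 1 and 5 at 2 weeks, and 1 to 3 with 1 array left out, and 1 member was lower with array weights. All probe sets called at 2 weeks were 892, and 314, 482 and 232 with the GAPDH ratio, spike-in and fat index covariates (598 to 986 with 1 array left out), and 585 without HSF arrays 1 and 5 at 2 weeks, a setting added after the data were examined. At 8 weeks they were 933, 541 without normal-diet arrays 1 and 2, 497 with the spike-in covariate, and 543 to 1120 with 1 array left out. For the interaction they were 39, 80 with array weights, 4, 0 and 13 with the GAPDH ratio, spike-in and fat index covariates, and 22 to 50 with 1 array left out. For time on the HSF diet they were 360, 632 with array weights, 223 with only the groups compared, and 220 to 507. For time on the normal diet they were 4, 2 with median centring, 9 without normal-diet arrays 1 and 2, 0 without a trend, with only the groups compared or with any covariate, and 0 to 10. The cause of these moves was not tested, beyond fewer arrays where arrays were left out.

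Same-numbered arrays of different groups had correlations of their deviations from -0.147 to 0.162. These showed no pairing by number, but a small shared effect could be missed, so pairing is not excluded. With the replicate block the 8-week count was 6 members. Faint probe sets (Trib3, Nucb2, Pdia3's second) are measured least well.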
